A study of Mus musculus with 12 samples.

Results

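COPII, COPI and cargo receptor genes encode the machinery that carries newly made proteins out of the endoplasmic reticulum (ER) and returns escaped ER proteins from the Golgi. The 52 genes studied were taken by name from the expression data, after removal of a trailing suffix that 9 of them carry there. The sources used here do not give the meaning of this suffix. The genes were divided into 4 classes of 16 COPII coat and ER exit site genes, 11 COPI coat genes, 18 cargo receptors and 7 tethers and SNAREs. Of these, 51 had a row among the 24189 genes listed for every library, whereas Mia3 had none. Sec16b, a scaffold gene of ER exit sites, lay at 0.224–0.671 TPM (transcripts per 1000000 transcripts) in all 10 libraries and was too low to be tested, so that 50 genes were tested.

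The series comprised 10 RNA-seq libraries of mouse antibody-secreting cells, with 2 libraries for each of 5 groups, and 2 lists of binding sites of the transcription factor Mist1, which is encoded by Bhlha15. Plasmablasts (PBs) were generated from splenic B cells on 40LB feeder cells, first with IL-4 and then with IL-21, and were sorted on day 8 by markers that included CD138+ and CD23-. They carried Xbp1 fl/fl alleles without Cre, the Cd23-Cre transgene together with Xbp1 fl/fl alleles, or the Bhlha15 CreER/CreER alleles that disrupt Mist1. Plasma cells (PCs) were TACI+CD138+ spleen cells, sorted on day 7 after immunization with NP-KLH in alum, from control mice labelled wildtype, which the study's sample list gives as Bhlha15 fl/fl, or from Cd23-Cre Bhlha15 fl/fl mice. Mist1 binding was mapped by the authors in PBs after 4 days of LPS stimulation of B cells with biotin-tagged Mist1 (Bhlha15 fl/fl R26 BirA/BirA). The mice were on the C57BL/6 background. Cd23-Cre acts from the immature and mature B cell stage onwards, so that deletion preceded PC differentiation. Bhlha15 CreER/CreER PBs had no control of their own genotype and were compared with Xbp1 fl/fl PBs, which thereby served as control for both mutant PBs. The Xbp1 fl/fl PBs are called control PBs hereafter, and those with Cd23-Cre Xbp1-deficient PBs. Likewise, Cd23-Cre Bhlha15 fl/fl PCs are called Mist1-deficient PCs. The labels do not tie libraries to individual mice, and p-values therefore measure the spread between libraries, which may in part be technical.

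Secretory cargo leaves the ER in COPII vesicles. The GTPase Sar1, activated by Preb (Sec12), recruits the inner coat of Sec23 and cargo-binding Sec24, followed by the outer cage of Sec13 and Sec31. COPI vesicles, which form when the GTPase Arf1 recruits a coat of several Cop subunits, carry ER residents and receptors backwards, with Kdelr receptors binding the escaped chaperones. PCs secrete antibodies in large amounts and have a greatly expanded ER, and Xbp1 is known as a transcription factor of the unfolded protein response that drives secretory genes in these cells.

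The labels were checked by the targeted genes. Bhlha15 was at 176 and 159 TPM in control PBs, at 0.21 and 0.551 TPM in Bhlha15 CreER/CreER PBs, at 258 and 242 TPM in control PCs and at 14.4 and 16.6 TPM in Mist1-deficient PCs. Xbp1-deficient PBs also had little Bhlha15, with 3.57 and 2.6 TPM. Xbp1 was at 3168 and 3043 TPM in the control and at 1981 and 2024 TPM in Xbp1-deficient PBs, and the gene total does not resolve the deleted part. The list of plasma cell markers examined includes Cd79a and Cd79b, B cell receptor genes that are not particular to plasma cells. All 9 genes of this list, led by Mzb1, were at or above 1 TPM in every group. Their summed level was 18494–19255 TPM in control PBs and 8394–8470 TPM in Xbp1-deficient PBs. The sum followed Mzb1, with 15573 and 14995 TPM in the control and 3707 and 3547 TPM in the mutant PBs. The other 8 markers summed to 3500–3681 TPM in the control and 4764–4847 TPM in the mutant PBs. Most of that rise lay in Cd79b, with 1231 and 1161 TPM in the control and 2281 and 2269 TPM in the mutant PBs. In these deposited TPM, Prdm1, Irf4 and Tnfrsf13b were also higher in both mutant libraries than in either control library. Tnfrsf17, Slamf7 and Cd79a were lower in both, and Sdc1 overlapped between the groups. The scaling factors used in the fits were 0.944 and 0.999 in control PBs and 1.118 and 1.125 in mutant PBs. Once divided by these factors, Prdm1 and Tnfrsf13b overlapped between the groups, and Sdc1 was lower in both mutant libraries.

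Letters known as binding sites of Xbp1 were searched in the promoters of these genes, because they give sequence context to the changes described below. RefSeq promoter windows (GRCm38.p6, 250 bases before to 50 bases after a transcription start, both strands) were found for 45 of the 51 genes, with Ctage5 matched under its current symbol Mia2. No window was matched for Arcn1, Tmed2, Tmed7, Lman1, Kdelr2 and Hid1. The sequence TGACGTGG, the known element of the unfolded protein response, was present in 9 of 45 genes (20.0%), compared with 0.714% of 27025 genes with windows and 1.11% of 8991 genes that were also tested in PBs. These 9 genes were Sec23a, Sec24d and Sec16b of the COPII class, Copb1, Copb2, Arf1 and Gbf1 of the COPI class, the KDEL receptor Kdelr3 and the SNARE gene Stx5a. Its shorter core CCACGT, whose other strand lies within TGACGTGG, was present in 23 of 45 genes (51.1%), compared with 9.40% of all genes and 13.4% of tested genes. CCAAT followed after 9 bases by CCACG, the known ER stress response element, was found in 0 of 45 genes and in 0.137% of all genes. A match describes the letters only and is not evidence of binding.

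The 6 genes with TGACGTGG upstream of the annotated start are shown to let the surrounding bases be compared, with the element or its other strand (CCACGTCA) in capitals and each sequence given 5′ to 3′ on the strand of the gene. In the other 3 genes, Sec23a, Copb2 and Stx5a, the match was not wholly upstream of the start.
Sec24d, chr3:123267454-123267493, + strand: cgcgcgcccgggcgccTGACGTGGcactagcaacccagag
Copb1, chr7:114254685-114254724, - strand: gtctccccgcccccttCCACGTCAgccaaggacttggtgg
Arf1, chr11:59228223-59228262, - strand: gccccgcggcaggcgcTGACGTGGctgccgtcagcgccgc
Gbf1, chr19:46152530-46152557, + strand: agactgaggctagttaCCACGTCAgtga
Kdelr3, chr15:79516362-79516401, + strand: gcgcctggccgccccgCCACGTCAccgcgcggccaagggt
Sec16b, chr1:157506736-157506775, + strand: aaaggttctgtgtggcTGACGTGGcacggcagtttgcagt
The element began 26 bases before the start in Sec24d, 28 bases in Copb1, 84 bases in Arf1, 12 bases in Gbf1, 30 bases in Kdelr3 and 44 bases in Sec16b. Of these 6 genes, Sec24d had the largest decrease in Xbp1-deficient PBs among those tested, whereas Sec16b was barely detected and not tested.

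The first comparison asked which vesicle genes differed upon loss of Xbp1 in PBs. Of the 50 genes tested, 46 were lower in Xbp1-deficient than in control PBs at an adjusted p under 0.05 (limma), against a background of 18.0% of 12125 genes. The median log2 fold change over the 50 genes was -1.05, compared with 0.0041 for all genes tested. Copg2 and Tmed1 were higher, against a background of 10.3%, and Sec24b and Copz2 passed in neither direction. In sum, the 51 genes made up 1.39–1.44% of all TPM in control PBs and 0.705–0.711% in Xbp1-deficient PBs. Summed fibroblast markers, a measure of feeder cell RNA led by Col1a1, were 1235–1473 TPM in the control and 1793–1943 TPM in the mutant PBs, and at least 8 of the 10 genes reached 1 TPM in either group. Summed neutrophil markers were 10.3–11.6 and 137–139 TPM, with Elane, Mpo, Retnlg and Mmp8 at 0 in control PBs. Summed macrophage markers were 150–151 and 49.9–52.7 TPM, with C1qa at 0 in both groups. This sum followed Cd68, with 128 and 131 TPM in the control and 16.9 and 18.7 TPM in the mutant PBs, whereas the other 8 genes summed to 20.5–21.5 and 31.2–35.8 TPM. Their part in these differences was not tested. In bulk libraries, fewer cells of a type and less RNA per cell cannot be told apart.

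**Figure D1:**
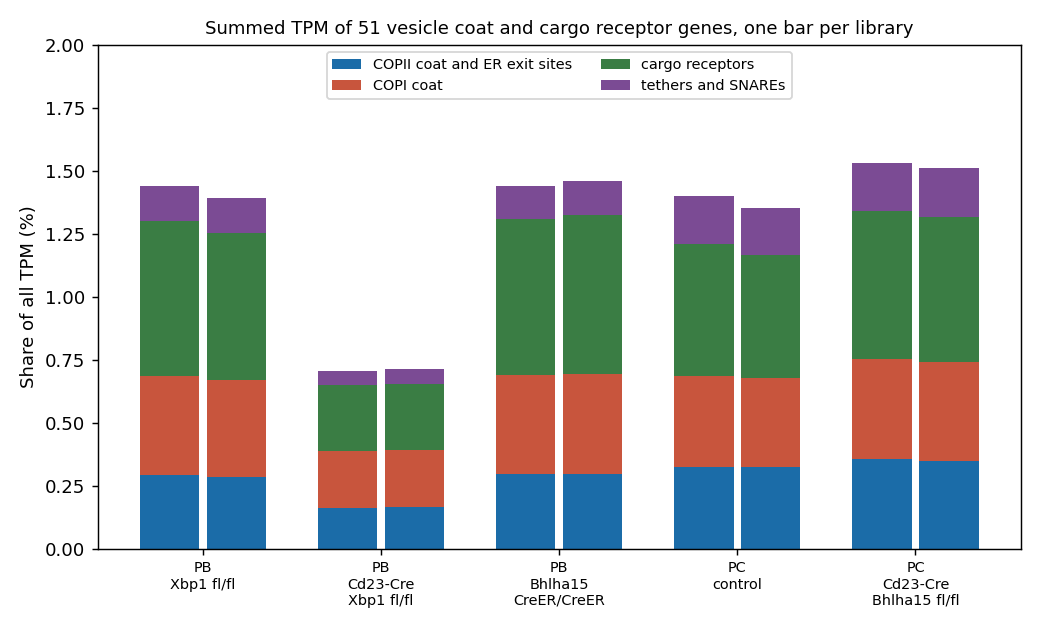
Stacked bars give the summed TPM of the 51 genes as a percentage of all TPM, one bar for each library, divided by class. Both Xbp1-deficient PB libraries stand at 0.705–0.711%, whereas the other 8 libraries lie between 1.35% and 1.53%.

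With the fold threshold of the study (fold above 3, adjusted p under 0.05 and a mean above 5 TPM in the higher group), 10 of the 50 genes were lower, against a background of 1.63%. They comprised 3 COPII genes, 5 cargo receptors and 2 tethers and SNAREs, but no COPI gene. The next gene was Mcfd2 with a 2.99-fold difference. Values are given on the scaled log2(TPM + 0.1) scale unless called TPM. On the TPM as deposited, the median of all genes in this comparison was 0.21 instead of 0.0041, and 1357 genes were lower and 3423 higher instead of 2186 and 1250. With deposited TPM, 44 of the 50 genes were lower and 2 higher, and Sec24a (adjusted p = 0.0858) and Sar1b (adjusted p = 0.095) were the calls lost. The fold threshold was then passed by 7 genes, against 1.08% of all genes tested, and was missed by the cargo receptors Surf4, Tmed2 and Ergic3 with log2 fold changes of -1.52, -1.57 and -1.58.

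Among the COPII genes, 13 of 14 were lower, and the class median was -0.87. Sec24d, one of the 4 cargo-binding Sec24 subunits, was at 318 and 306 TPM in control PBs and at 26 and 23.5 TPM in Xbp1-deficient PBs. All other groups were at 273–332 TPM, and the mutant PBs were thus far below every other library. The log2 change amounted to -3.86 (SE 0.09, adjusted p = 1.48e-07, limma), which corresponds to a 14.5-fold decrease. The other Sec24 genes moved much less. Sec24c was at 170 and 167 TPM in the control and 124 and 127 TPM in the mutant PBs (log2 fold change -0.64, adjusted p = 0.00044). Sec24a was at 60.2 and 63.2 TPM and at 47.8 and 56.7 TPM (log2 fold change -0.45, adjusted p = 0.0067). Sec24b was at 37.4 and 37.5 TPM and at 37.6 and 38.3 TPM, at a log2 change of -0.19 (95% interval -0.36 to -0.02, adjusted p = 0.0998), and its sign rested on the scaling, since the deposited values were not lower. Among the 4 paralogs, Sec24d had been the most abundant in control PBs and became the least abundant in the mutant PBs.

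The pair of Sec23 genes also differed. Sec23b, the more abundant paralog of this inner coat subunit, was at 324 and 308 TPM in the control PBs and at 92.9 and 97.3 TPM in the mutant PBs (log2 fold change -1.94, SE 0.09, adjusted p = 2.11e-06). Sec23a was at 70.6 and 66 TPM and at 53.1 and 59 TPM (log2 fold change -0.49, SE 0.1, adjusted p = 0.00578). Both paralogs were lower without overlap between the groups, and the decrease in Sec23a lost its call without replicate 1 of control PBs (adjusted p = 0.0631). Preb, the exchange factor that activates Sar1 at the ER membrane, fell from 129 and 131 TPM to 40.4 and 41.6 TPM (log2 fold change -1.87, SE 0.08, adjusted p = 1.78e-06). Of its substrates, Sar1a was at 321 and 304 TPM in the control and 171 and 173 TPM in the mutant PBs (log2 fold change -1.07, adjusted p = 6.63e-05). Sar1b was at 295 and 298 TPM and at 272 and 279 TPM, at a log2 change of -0.31 (adjusted p = 0.0224) that lost its call with deposited TPM and without any 1 of the 4 libraries compared (adjusted p 0.0871–0.165). The remaining genes of this class were all lower, with log2 fold changes of -1.06 for Tfg, -1.03 for the exit site scaffold Sec16a, -0.94 for Ctage5, which acts at exit sites in the export of bulky cargo, -0.80 for Sec31a and -0.68 for Sec13.

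Among the COPI genes, 9 of 11 were lower, and the class median was -0.92. Cope, the epsilon subunit and the most abundant COPI transcript, was at 871 and 851 TPM in control PBs and at 381 and 363 TPM in Xbp1-deficient PBs. This amounted to a log2 change of -1.42 (SE 0.11, adjusted p = 3.82e-05), the largest decrease of the class. Arcn1, the delta subunit, was at -1.24, Copb2 at -1.04, Copb1 at -0.93, Copz1 at -0.92, Copa at -0.87 and Copg1 at -0.82 on the log2 scale. Gbf1, the exchange factor that activates Arf1, was at -1.06 and Arf1 itself at -0.70. The coat contains a gamma and a zeta subunit, each encoded by a pair of paralogs, and in both cases only the more abundant paralog was lower at the threshold. Copg2 was at 26 and 27.1 TPM in the control and at 40.2 and 40 TPM in the mutant PBs, a log2 change of 0.38 (SE 0.08, adjusted p = 0.00683), and lost its call without replicate 2 of control PBs (adjusted p = 0.0559). Copz2 was at 25.5 and 24.7 TPM and at 27.6 and 27 TPM, at a log2 change of -0.09 (95% interval -0.28 to 0.11, adjusted p = 0.498), and here too the sign was set by the scaling. Copg2 shares exon sequence on the opposite strand with Mest, which was at 0.302–0.749 TPM in all libraries.

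The cargo receptors had 17 of 18 genes lower and a class median of -1.29. Lman1, the lectin receptor that exports glycoproteins such as clotting factors, was at 671 and 648 TPM in control PBs and at 167 and 175 TPM in Xbp1-deficient PBs (log2 fold change -2.15, SE 0.09, adjusted p = 1.45e-06). Its partner Mcfd2 was at 89.4 and 88.4 TPM and at 33.6 and 35 TPM (log2 fold change -1.58, SE 0.09, adjusted p = 5.99e-06). Both members of this receptor complex thus fell, and the related lectin Lman2 fell by 1.38 on the log2 scale. Surf4, a receptor for soluble secretory proteins, was at 898 and 822 TPM in the control and at 298 and 299 TPM in the mutant PBs (log2 fold change -1.73, SE 0.11, adjusted p = 1.36e-05). The Ergic genes encode proteins that cycle between ER and Golgi. Ergic3 was at 536 and 499 TPM and at 180 and 167 TPM (log2 fold change -1.78), Ergic2 was at -1.20 and Ergic1 at -1.02 on the log2 scale.

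The p24 family of small transmembrane receptors was represented by 8 Tmed genes, of which 7 were lower. Tmed9 was at 940 and 892 TPM in control PBs and at 309 and 291 TPM in Xbp1-deficient PBs (log2 fold change -1.82, SE 0.11, adjusted p = 8.2e-06). Tmed2 was at 142 and 131 TPM and at 44.8 and 46.8 TPM (log2 fold change -1.78, SE 0.08, adjusted p = 3.05e-06). The decreases of the other family members were graded, with -1.53 for Tmed3, -1.09 for Tmed10, -0.96 for Tmed5, -0.76 for Tmed7 and -0.38 for Tmed4. Tmed4 lost its call without replicate 1 of control PBs (adjusted p = 0.11) or replicate 2 of Xbp1-deficient PBs (adjusted p = 0.0565). Tmed1, the least abundant member of the family, was instead higher, with 7.43 and 8.15 TPM in the control and 13.1 and 16 TPM in the mutant PBs (log2 fold change 0.68, SE 0.12, adjusted p = 0.0044). Exons of Tmed1 overlap Dnm2 on the opposite strand, and Dnm2 was at 80 and 80.7 TPM and at 93.9 and 99.2 TPM (log2 fold change 0.06, adjusted p = 0.623). The KDEL receptors retrieve escaped ER chaperones. Kdelr2 was at 401 and 378 TPM in the control and at 154 and 163 TPM in the mutant PBs (log2 fold change -1.51, adjusted p = 6.18e-06), with smaller decreases of Kdelr3 (-0.82, adjusted p = 0.00699) and Kdelr1 (-0.58, adjusted p = 0.00165). Kdelr1 was at 427 and 402 TPM in control PBs, a little above Kdelr2, and at 322 and 321 TPM in Xbp1-deficient PBs, where it was well above Kdelr2.

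All 7 tethers and SNAREs were lower, and the class median was -1.35. Hid1, which is known from the Golgi of endocrine cells for its role in secretory granule formation, was at 120 and 127 TPM in control PBs and at 3.12 and 2.2 TPM in Xbp1-deficient PBs. Its log2 change of -5.71 (SE 0.15, adjusted p = 1.6e-07) was the largest of all 50 genes and corresponded to 52.3-fold. Bet1, a SNARE of ER to Golgi transport, was at 212 and 209 TPM and at 49.2 and 45.2 TPM (log2 fold change -2.37, SE 0.1, adjusted p = 1.8e-06). Its partners in the same SNARE complex were lower to a smaller extent, with -1.37 for Stx5a, -1.29 for Sec22b and -1.25 for Gosr2. Uso1, the tether that captures vesicles at the Golgi, was at 282 and 279 TPM and at 124 and 130 TPM (log2 fold change -1.35, adjusted p = 1.01e-05), and its docking partner Golga2 was at -0.42 (adjusted p = 0.00229).

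**Figure D2:**
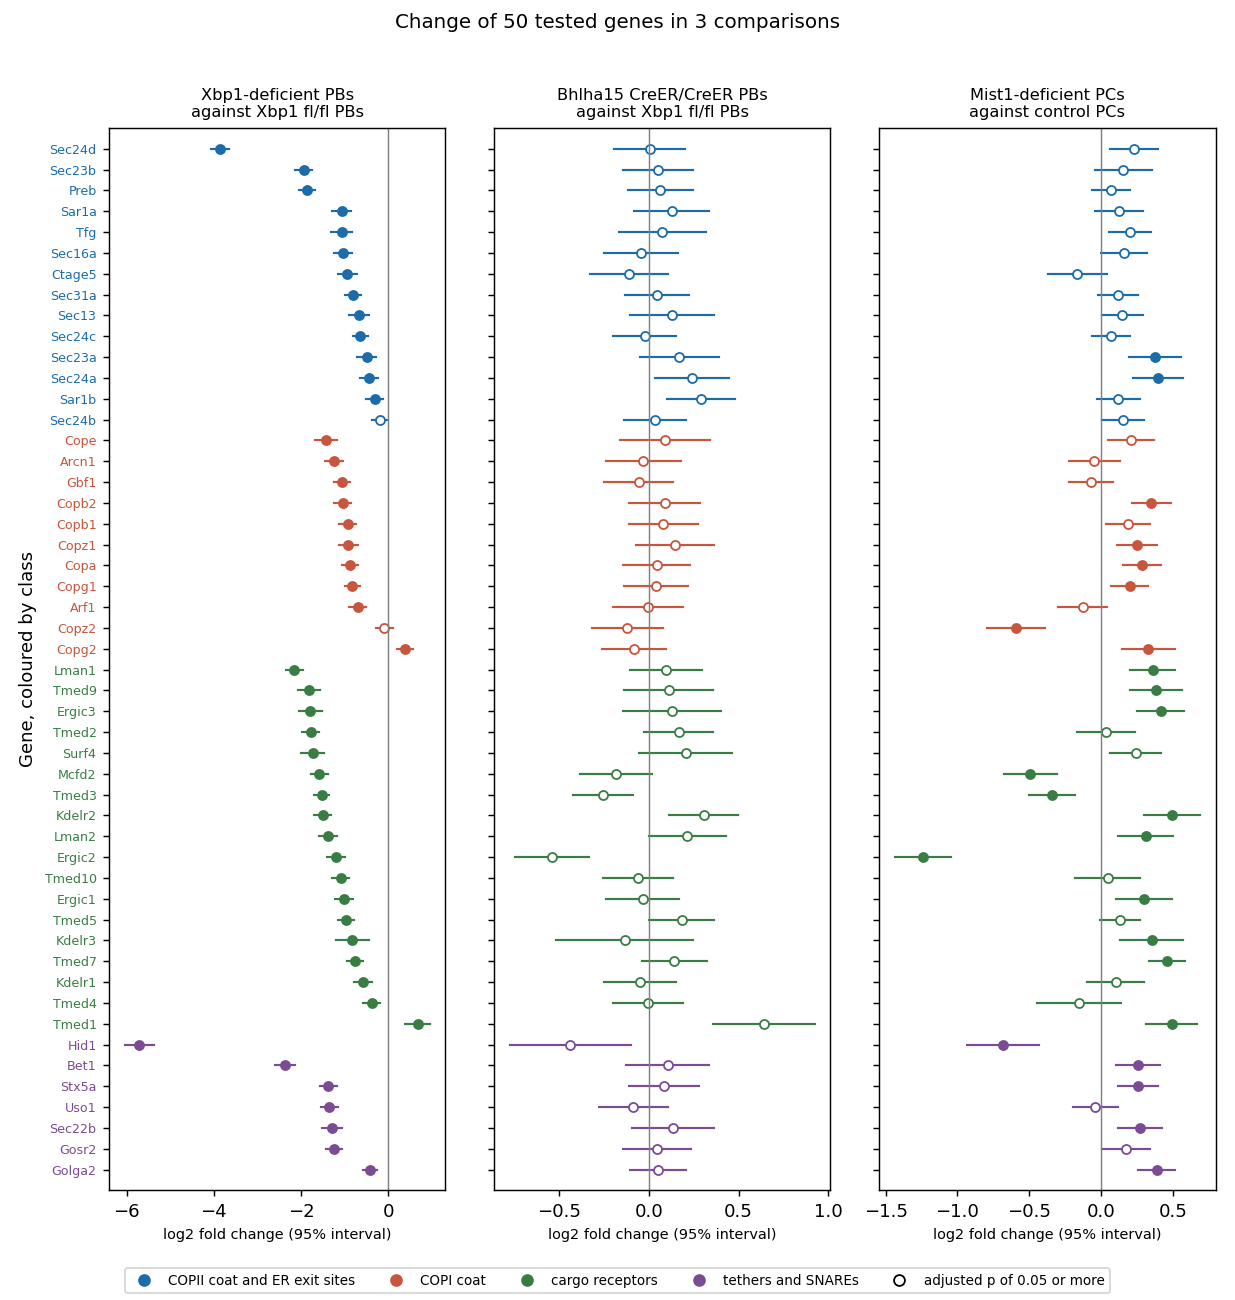
Points give the log2 fold change of each of the 50 tested genes in 3 comparisons, lines the 95% interval of limma, filled points an adjusted p under 0.05, and colours the class. The x axes differ in range: in Xbp1-deficient PBs 46 genes are lower, with Hid1 at -5.71, in Bhlha15 CreER/CreER PBs no point is filled, and in Mist1-deficient PCs 5 genes are lower and 20 higher.

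Genes that act beside these classes were examined from 5 further lists, of which 74 genes were tested in PBs. Of these, 40 were lower and 4 higher in Xbp1-deficient PBs, against the background of 18.0% and 10.3%, and the median log2 fold change was -0.29. By list, lower genes were 9 of 11 golgins and stacking genes, 11 of 15 genes of the Arf cycle and coat factors, 9 of 16 further genes of SNARE machinery, 8 of 22 TRAPP and COG tether genes and 3 of 10 further cargo adaptors. These counts depended on the scaling, and 28 were lower and 19 higher with deposited TPM, where 1357 and 3423 of all 12125 genes were called. Those passing the fold threshold were Arfgap3, which switches off Arf1, at a log2 change of -1.99, Nbas, a component of an ER tether, with -1.97, the related genes Yif1b and Yif1a with -1.71 and -1.59, and Gorasp2, a Golgi stacking protein, with -1.62. With deposited TPM, Arfgap3 and Nbas still passed, whereas Yif1b (2.83-fold), Gorasp2 (2.66-fold) and Yif1a (2.61-fold) did not reach the fold threshold. The number passing was 3 without replicate 1 of control PBs. Arfgap3 was at 152 and 145 TPM in the control and at 43.8 and 42.4 TPM in the mutant PBs.

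The second comparison concerned PBs with disrupted Mist1. No member passed the test in Bhlha15 CreER/CreER against control PBs, 0 of 50 in either direction by limma, against a background of 0.272% lower and 0.0495% higher. The median log2 fold change was 0.05, the range was -0.54 to 0.64, and the summed level of the genes was 1.44–1.46% of TPM. At an unadjusted p under 0.05, 3 members were lower and 6 higher, and none of the 74 genes of the further lists passed the adjusted test. Over all genes, 33 were lower and 6 higher by the adjusted test, and 1267 passed without adjustment. Summed fibroblast markers differed between the 2 Bhlha15 CreER/CreER libraries, with 1627 and 983 TPM. Ergic2 was closest to the threshold, with 77.4 and 74.2 TPM in control PBs and 50.1 and 51.1 TPM in Bhlha15 CreER/CreER PBs. The groups did not overlap, and the log2 change was -0.54 (95% interval -0.75 to -0.33, adjusted p = 0.0652). It passed with deposited TPM (adjusted p = 0.0186), quantile normalization (0.0256), a filter at 5 TPM (0.0341) and robust limma (0.02). Tmed1 was at 12.7 and 11.1 TPM, compared with 7.43 and 8.15 TPM in the control (log2 fold change 0.64, 95% interval 0.36 to 0.93, adjusted p = 0.112). Hid1 was at 88.4 and 89 TPM, compared with 120 and 127 TPM (log2 fold change -0.44, 95% interval -0.78 to -0.10, adjusted p = 0.355). Sec24d was at 308 and 300 TPM, at a log2 change of 0.00 (95% interval -0.20 to 0.20).

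Both mutant PB genotypes were compared with each other, since each was otherwise measured against the same 2 control libraries. Here 46 of the 50 genes were lower in Xbp1-deficient than in Bhlha15 CreER/CreER PBs, against a background of 17.8%, and Copg2 was higher (log2 difference 0.47, adjusted p = 0.00265), against a background of 9.34%. The median difference was -1.05. The Ergic2 level was lower in Xbp1-deficient than in Bhlha15 CreER/CreER PBs, with a log2 difference of -0.67 (adjusted p = 0.000956), and Hid1 differed by -5.27. Tmed1 did not pass (0.03, 95% interval -0.25 to 0.32, adjusted p = 0.861).

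**Figure D3:**
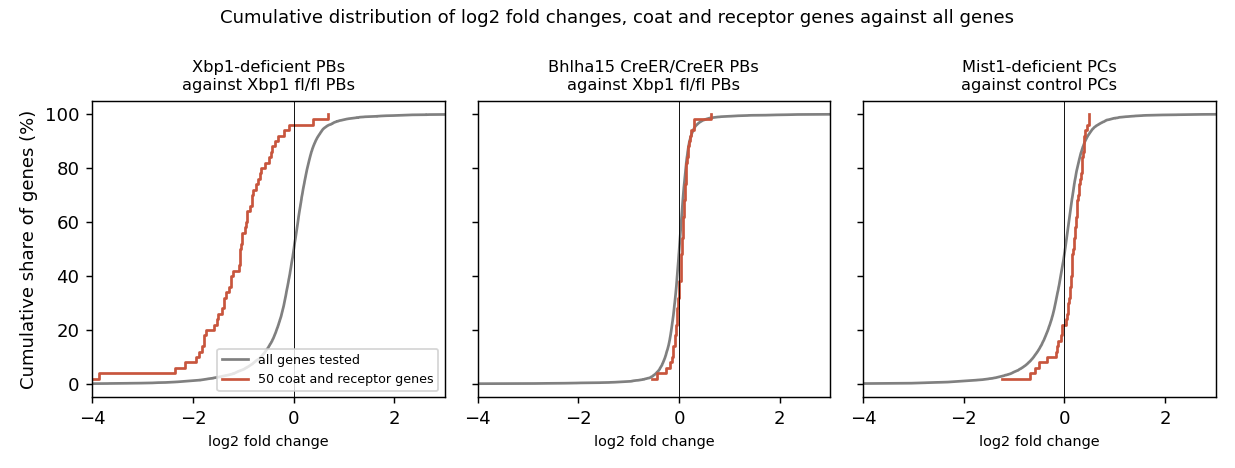
Curves give the cumulative percentage of genes at or below each log2 fold change, in red for the 50 coat and receptor genes and in grey for all genes tested (12125 in PBs and 12028 in PCs). The red curve lies left of the grey one in Xbp1-deficient PBs (medians -1.05 and 0.0041) and close to it in Bhlha15 CreER/CreER PBs (0.05 and 0.0044), and its median is 0.18 in Mist1-deficient PCs (all genes 0.0143). Hid1 at -5.71 lies outside the plotted range of -4 to 3.

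The third comparison concerned the loss of Mist1 in splenic PCs. Of the 50 genes, 5 were lower in Mist1-deficient than in control PCs, against a background of 16.2% of 12028 genes, and 20 were higher, against a background of 13.3%. The median log2 fold change was 0.18, and none passed the fold threshold. Summed over all 51 genes, the level was 1.35–1.40% of TPM in control and 1.51–1.53% in Mist1-deficient PCs. The number of higher genes was sensitive to single libraries and to the variance model. It was 2 without either replicate of Mist1-deficient PCs, 31 without replicate 1 of the control and 6 when the variance trend was left out. The number of lower genes was 3 without either replicate of Mist1-deficient PCs and 8 without replicate 2 of the control. Summed neutrophil markers were 473–1005 TPM in control and 573–864 TPM in Mist1-deficient PCs and summed T cell markers 81.4–83.3 and 91.3–119 TPM, and their part in these differences was not tested.

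Ergic2 had the largest decrease in Mist1-deficient PCs. It was at 145 and 132 TPM in control and at 59.1 and 56.7 TPM in Mist1-deficient PCs, without overlap between the groups. The log2 change amounted to -1.24 (SE 0.08, adjusted p = 0.00133), which corresponds to 2.36-fold, and ranged from -1.34 to -1.14 when single libraries were left out. Exons of Ergic2 overlap Far2 on the opposite strand, and Far2 was at 13.3 and 16.4 TPM in control and 5.96 and 6.51 TPM in Mist1-deficient PCs (log2 fold change -1.21, adjusted p = 0.0028). The authors name a directional RNA kit, but whether strand was used in counting is not given in the sources used here. From the TPM alone, the reads of the 2 genes cannot be told apart where they overlap. Hid1 was at 381 and 324 TPM in control and at 214 and 218 TPM in Mist1-deficient PCs (log2 fold change -0.68, SE 0.1, adjusted p = 0.00707). Copz2, the minor zeta subunit of COPI, was at 57.1 and 52.3 TPM and at 36.1 and 35.5 TPM (log2 fold change -0.59, SE 0.08, adjusted p = 0.00577). Ergic2, Hid1 and Copz2 passed without any 1 of the 4 libraries. Mcfd2 was at 173 and 159 TPM in control and at 115 and 117 TPM in Mist1-deficient PCs (log2 fold change -0.50, adjusted p = 0.00742). Tmed3 was at 186 and 178 TPM and at 140 and 143 TPM (log2 fold change -0.34, adjusted p = 0.014). Both genes lost their call without either library of Mist1-deficient PCs.

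The 20 higher genes comprised 2 of 14 COPII genes, 5 of 11 COPI genes, 9 of 18 cargo receptors and 4 of 7 tethers and SNAREs. The background was 13.3% of all genes tested, and the COPII share was close to it. The increases were small. Tmed7 was at 104 and 108 TPM in control and at 143 and 144 TPM in Mist1-deficient PCs (log2 fold change 0.45, SE 0.05, adjusted p = 0.00336), and it alone of the 20 genes passed without any 1 of the 4 libraries. Its exons overlap those of Ticam2 on the same strand, and Ticam2 was at 18.6 and 14.5 TPM and at 7.36 and 7.28 TPM (log2 fold change -1.14, adjusted p = 0.00552). Tmed1 was at 20.5 and 20.8 TPM and at 28.3 and 28.9 TPM (log2 fold change 0.49, adjusted p = 0.00675). Kdelr2 had the same log2 fold change of 0.49, with 345 and 313 TPM in control and 452 and 460 TPM in Mist1-deficient PCs. For the receptors Ergic3, Tmed9, Lman1, Kdelr3, Lman2 and Ergic1 the log2 fold changes were 0.41, 0.38, 0.36, 0.35, 0.31 and 0.30. The higher COPII genes were Sec24a (0.39, from 166 and 184 TPM to 239 and 215 TPM) and Sec23a (0.37). The higher COPI genes were Copb2 (0.35), Copg2 (0.33), Copa (0.28), Copz1 (0.25) and Copg1 (0.20). Golga2, which overlaps Swi5 on the opposite strand, was at 0.38, and Swi5 itself was at 386 and 444 TPM in control and 588 and 577 TPM in Mist1-deficient PCs (log2 fold change 0.51, adjusted p = 0.00492). The SNARE genes Sec22b, Stx5a and Bet1 were at 0.27, 0.26 and 0.25. Sec24d, with 287 and 273 TPM in control and 332 and 315 TPM in Mist1-deficient PCs, did not pass (log2 fold change 0.23, 95% interval 0.06 to 0.39, adjusted p = 0.0545). Of the 5 further lists, 8 of 75 genes tested were lower and 14 higher, against a background of 16.2% and 13.3%, with a median of 0.09.

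**Figure D4:**
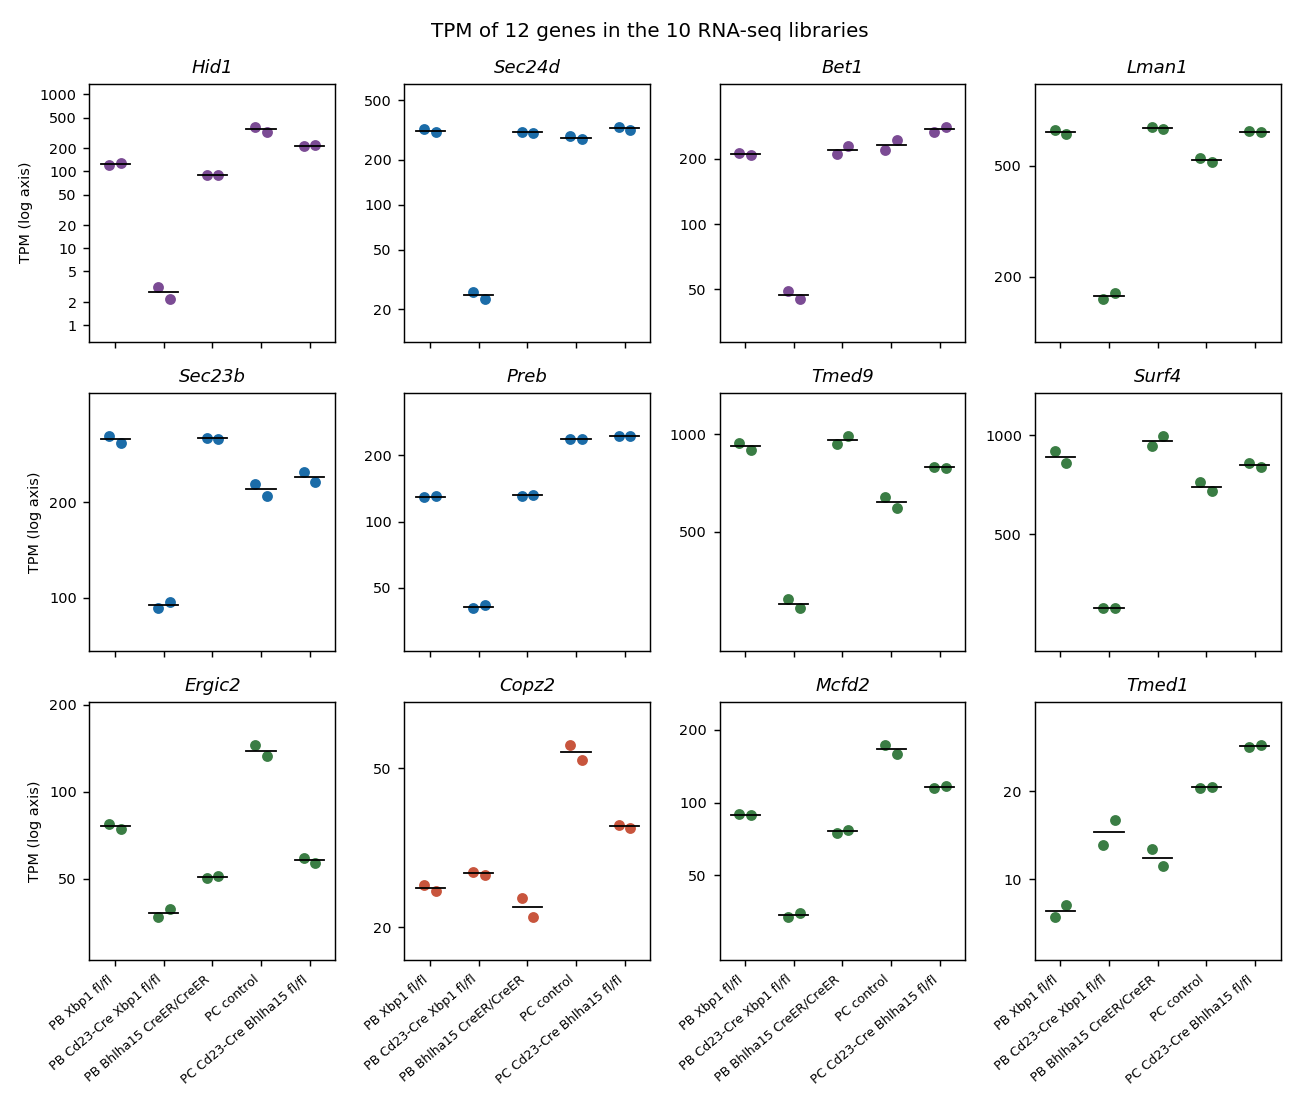
Points give the TPM of 12 genes in each of the 10 libraries on log axes that differ between genes, and horizontal lines give the mean of 2 libraries. Hid1, Sec24d, Bet1, Lman1, Sec23b, Preb, Tmed9 and Surf4 are lowest in Xbp1-deficient PBs, with Sec24d at 26 and 23.5 TPM, Ergic2, Hid1, Copz2 and Mcfd2 are lower in Mist1-deficient than in control PCs, and Tmed1 is lowest in control PBs.

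The change upon loss of Mist1 in PCs was tested against that of the Bhlha15 CreER/CreER alleles in PBs. In this test, the kind of allele, the control genotype, culture and stage cannot be told apart. The difference passed for 5 of 50 genes, against a background of 6.11% of 13230 genes. Ergic2 (difference -0.69, adjusted p = 0.0125) and Copz2 (-0.46, adjusted p = 0.0422) were more strongly decreased in PCs. Copg2 (0.42, adjusted p = 0.0289), Golga2 (0.35, adjusted p = 0.0226) and Tmed7 (0.33, adjusted p = 0.0333) were more increased in PCs. These 5 calls rested on single libraries. None passed without either Mist1-deficient PC library or without replicate 2 of control PBs. For Hid1, with log2 fold changes of -0.68 in PCs and -0.44 in PBs, the difference of -0.23 (95% interval -0.71 to 0.25, adjusted p = 0.582) did not pass.

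Levels were also compared between control PCs and control PBs, a comparison in which stage, culture, genotype and library batch cannot be told apart. Of the 50 genes, 23 were lower in PCs, against a background of 38.4%, and 14 were higher, against a background of 37.6%, and none passed the fold threshold. The median level of the 50 genes was 238 TPM in control PCs and 234 TPM in control PBs. Within the Sec24, zeta COPI and p24 families, paralogs differed in the size or direction of their change. Sec24a was at 166 and 184 TPM in PCs and at 60.2 and 63.2 TPM in PBs (log2 fold change 1.39, adjusted p = 5.51e-07), whereas Sec24d differed little (-0.27, adjusted p = 0.00854). Copz2 was at 57.1 and 52.3 TPM in PCs and at 25.5 and 24.7 TPM in PBs (1.01, adjusted p = 2.77e-06), whereas Copz1 was lower in PCs, with 288 and 286 TPM against 461 and 440 TPM (-0.77, adjusted p = 6.25e-06). In the p24 family, Tmed7 (-1.46) and Tmed5 (-0.96) were lower and Tmed1 (1.28) was higher in PCs. Hid1 was at 381 and 324 TPM in PCs and at 120 and 127 TPM in PBs (1.39, adjusted p = 2.45e-05), and Stx5a (0.78) and Uso1 (0.41) were also higher. The balance depended on the scaling, since 20 genes were lower and 18 higher with deposited TPM, and 15 were lower and 20 higher with quantile normalization.

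Mist1 binding was then related to the same genes by the peak lists (mm9), which give positions but no heights. Regions found in both lists lay within 1 kb of an annotated start in 41 of 51 genes (80.4%), compared with 63.3% of the 11394 genes tested in PBs that could be located. That background holds genes of all levels past the filter, and no share among genes of similar level was computed. By class they were absent from Sec24b and Sec16b among COPII genes, from Copb1, Copb2, Copg2, Cope and Copz2 among COPI genes, from Kdelr3 among receptors and from Gosr2 and Golga2 among the tethers and SNAREs. Of the 5 genes lower in Mist1-deficient PCs, Ergic2, Hid1, Mcfd2 and Tmed3 had such a region and Copz2 had none at its start but a region within the gene. Such a region also stood at 16 of the 20 higher genes and at 21 of the 25 genes that passed in neither direction. The median log2 fold change in Mist1-deficient PCs was 0.15 for the 41 genes with and 0.20 for the 9 tested genes without a region. The peaks were mapped in LPS-stimulated PBs, a different culture from those of the RNA-seq libraries.

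The E-box CAGCTG, a known Mist1 motif, was present in the central 300 bases of 12 of the 41 regions (29.3%), compared with 27.8% of 7881 regions at all starts. In the promoter windows it was present in 4 of 45 genes (8.89%), compared with 18.3% of all genes. The E-box nearest to the centre of the region, outside annotated exons, is shown for the 4 lower genes with a region, with CAGCTG in capitals and on the strand of the gene (mm9).
Ergic2, chr6:148160102-148160139, - strand: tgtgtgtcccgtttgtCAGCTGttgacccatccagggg
Hid1, chr11:115228360-115228397, - strand: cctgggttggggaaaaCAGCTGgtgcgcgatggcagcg
Mcfd2, chr17:87664904-87664941, - strand: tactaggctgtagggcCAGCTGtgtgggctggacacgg
Tmed3, chr9:89599192-89599229, - strand: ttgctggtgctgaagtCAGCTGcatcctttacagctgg
These motifs lay 424 bases from the nearest annotated start in Ergic2, 603 bases in Hid1, 292 bases in Mcfd2 and 671 bases in Tmed3, where the same letters occur again near the end of the stretch. The regions spanned chr6:148159070-148161120 at Ergic2 and chr11:115227552-115229366 at Hid1, which is annotated there as C630004H02Rik.

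Among the tested genes with a promoter window, the median change in Xbp1-deficient PBs was similar with and without these letters, and no test was run. Arcn1, Tmed2, Tmed7, Lman1, Kdelr2 and Hid1 had no window and are left out here. Among them are Hid1, with the largest decrease of the 50 members tested, and Lman1, with the largest among the cargo receptors. The median log2 fold change was -0.99 for the 8 tested genes with TGACGTGG and -1.02 for the 36 without it, and it was -0.93 for 22 genes with CCACGT and -1.05 for 22 without. The 8 genes with TGACGTGG ranged from -3.86 for Sec24d to -0.49 for Sec23a. Both genes that were higher in the mutant PBs, Copg2 and Tmed1, had neither sequence in their windows. Sec24b and Copz2, which passed in neither direction, had CCACGT but not TGACGTGG.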

How the data were processed

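To obtain the TPM they deposited, the authors trimmed reads with cutadapt, aligned them to mm9 with STAR 2.4.2 and counted them per gene with featureCounts 1.5, leaving out immunoglobulin and T cell receptor genes. TPM keep no depth, so no counting interval is given. The deposited peak lists were made with Bowtie 1.0.0 and MACS. Members and gene lists were chosen with earlier results of these data known. Here, TPM were divided by median-of-ratios factors, and genes that reached 1 TPM in 2 or more libraries of a model were fitted as log2(TPM + 0.1) with limma 3.58.1 (R 4.3.3, trended eBayes, tested on simulated data). Models held 6 PB, 4 PC or all 10 libraries, and p-values were Benjamini-Hochberg adjusted over all genes tested. All members were named, genes of other lists only above the fold threshold. Overlapping genes named beside a result were chosen after their values were seen. An exact permutation test of 2 against 2 libraries cannot go below p = 0.333 and was not used. Annotation was GENCODE M1 (mm9), in which 17 members have exons overlapping another gene, and no member shared 200 bases at 95% identity with a coding transcript outside such overlaps. Peaks were joined with bedtools 2.31.1. Alternatives were deposited TPM, quantile normalization, other pseudocounts and filters, limma without trend or robust, fewer libraries in the model, and leaving out each library.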

Additional observations from a re-analysis of the deposited data

Results flagged for a closer look

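A test of the difference between the Mist1 effect in PCs and that in PBs marked 5 genes (limma, adjusted over 13230 genes, of which 6.11% passed). The kind of allele, the control genotype, culture and stage cannot be told apart here, and the 5 calls rested on single libraries. The log2 difference, PCs minus PBs, was -0.69 for Ergic2 (adjusted p = 0.0125), -0.46 for Copz2 (0.0422), 0.42 for Copg2 (0.0289), 0.35 for Golga2 (0.0226) and 0.33 for Tmed7 (0.0333). Without single libraries, the Ergic2 difference ranged from -0.78 to -0.59, with adjusted p between 0.00762 and 0.0544.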

How the results depend on the processing

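No paired analysis was possible because the labels carry no replicate numbers that tie libraries of different groups. In Xbp1-deficient PBs, the count of lower genes was 42–45 and that of higher genes 1–2 without single libraries. The fold threshold was passed by 7–12 of these genes over all alternatives, and by 2 genes of the further lists instead of 5 with deposited TPM or quantile normalization and 3–5 without single libraries. For Bhlha15 CreER/CreER PBs the count of lower genes was 1 with deposited TPM, quantile normalization, a 5 TPM filter and robust limma. Against these PBs, 2 genes were higher in Xbp1-deficient PBs with deposited TPM. In Mist1-deficient PCs the count of higher genes was 6 without the variance trend and 2–31 without single libraries, and that of lower genes 3–8. Between PCs and PBs, quantile normalization gave 15 lower and 20 higher genes and reversed Sar1a to 0.184 (adjusted p = 0.00461), Arcn1 to 0.0744 and Ergic1 to 0.0529. The difference between both Mist1 effects gave 7 higher genes with deposited TPM and 9 with quantile normalization, 1 lower without a filter, 1 lower and 0 higher without the trend, 1 lower and 1 higher with the compared libraries alone, and 0–2 lower and 0–3 higher without single libraries. The causes of these changes were not tested. A common Mist1 region stood at 41 genes (80.4%, against 68.9% of all located genes) within 5 kb, at 37 (72.5% against 58.5%) when peaks had to share 50%, and at 46 (90.2% against 74.1%) with peaks of either list.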
